A study of Mus musculus with 6 samples.

Results

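The 43 genes described here mark T cells, natural killer (NK) cells, B cells and antibody-secreting plasma cells. They were taken as a list of symbols and not by a cut on their values, but with earlier results of these data known. All 43 were found among the 56923 gene identifiers of the count tables. Messenger RNA was sequenced from whole kidneys of male mice, 3 control kidneys and 3 Pkd1 KO kidneys. Pkd1 encodes polycystin-1, the protein most often altered in autosomal dominant polycystic kidney disease. Both groups were homozygous for a floxed Pkd1 gene (Pkd1flox/flox) and carried Tet-O-Cre, a Cre recombinase under a doxycycline-dependent promoter. Only the Pkd1 KO mice also carried Pax8rtTA, the doxycycline-dependent activator driven by the promoter of Pax8, a transcription factor gene of kidney tubule epithelium. All mice received doxycycline at 2 mg/ml with 5% sucrose in their drinking water from postnatal day 28 to day 42, 14 days in all, and kidneys were taken at 10 weeks. The controls therefore differed from the Pkd1 KO mice in the activator as well as in the deletion, and the driver is one of tubule cells, not of lymphocytes. The comparison asks which lymphocyte transcripts differed between kidneys with and without tubular Pkd1 deletion.

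T cells recognise antigen through a receptor of α and β chains that signals through the CD3 subunits and the kinases Lck and Zap70. NK cells kill without such a receptor and share granule enzymes and lectin-like receptors with cytotoxic T cells. B cells carry membrane immunoglobulin with its signalling partners Cd79a and Cd79b, and plasma cells secrete it, whereas a healthy kidney holds only scattered lymphocytes between its tubules.

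Each library held 45020173 to 62983791 gene counts. The table names give all 3 controls 1 sequencing project and all 3 Pkd1 KO kidneys a different one, so a project difference and a genotype difference cannot be told apart here. Pkd1 itself had 30.01, 46.4 and 23.6 CPM (counts of a gene scaled to equal library size) in controls 1, 2 and 3, against 8.77, 9.003 and 10.01 CPM in kidneys 1, 2 and 3 of the Pkd1 KO group. Its log2 fold change was −1.85 ± 0.24 (SE; adjusted p = 0.00234 in edgeR's quasi-likelihood test), and −0.49 (adjusted p = 0.0135) once offsets for GC content and exon length were added. The summed level of 8 tubule genes was 8679 to 15100 CPM in controls and 5113 to 5664 CPM in Pkd1 KO kidneys. Of the 8, 6 were lower and 0 higher in edgeR's test (1 higher at an unadjusted p below 0.05, 0 in DESeq2). With the offsets 4 were lower and 1 higher in edgeR's test, the latter Pax8 (log2 fold change 0.86, adjusted p = 0.00717). The labels describe separate kidneys and say no more of the animals, so the p-values measure the spread between these samples. In whole tissue, more cells of a type and more RNA per cell cannot be told apart.

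The 43 genes were low in all kidneys. In controls 33 of them averaged below 1 CPM, in Pkd1 KO kidneys 24 did, and 15 had fewer than 10 counts in at least 1 library, although 0 of the 43 had a library without counts. A gene was called where its adjusted p was below 0.05 in edgeR's quasi-likelihood test over all genes that passed the filter on low counts. Of the 43, 21 were called higher in Pkd1 KO kidneys, 1 lower, 18 were not called, and 3 (Ctla4, Pax5 and Tnfrsf17) did not pass the filter. The filter looks at all libraries, so a gene near the floor in controls could pass it only through high enough Pkd1 KO counts. Among others this holds for Klrb1c, Iglc2 and Ncr1, with fewer than 10 counts in every control, and for Ms4a1 (5, 18 and 4 counts). Klrb1c, Iglc2 and Ms4a1 are among the 21, and their calls do not stand apart from the filter. Of all 18273 tested genes 22.7% were called higher and 24.2% lower, 46.9% in either direction. The median log2 fold change was 0.96 in the fit without the filter, which covered all 43 genes, against 0.19 for all genes in that fit. With the filter it was 0.96 over the 40 tested genes against 0.03 for all genes tested. The 3 Pkd1 KO values lay above the 3 control values for 25 of the 43 genes and below them for 1, and the groups overlapped for 17. Among all tested genes 31.2% lay above and 30.0% below. The plot of CPM by kidney shows these values gene by gene.

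**Figure D1:**
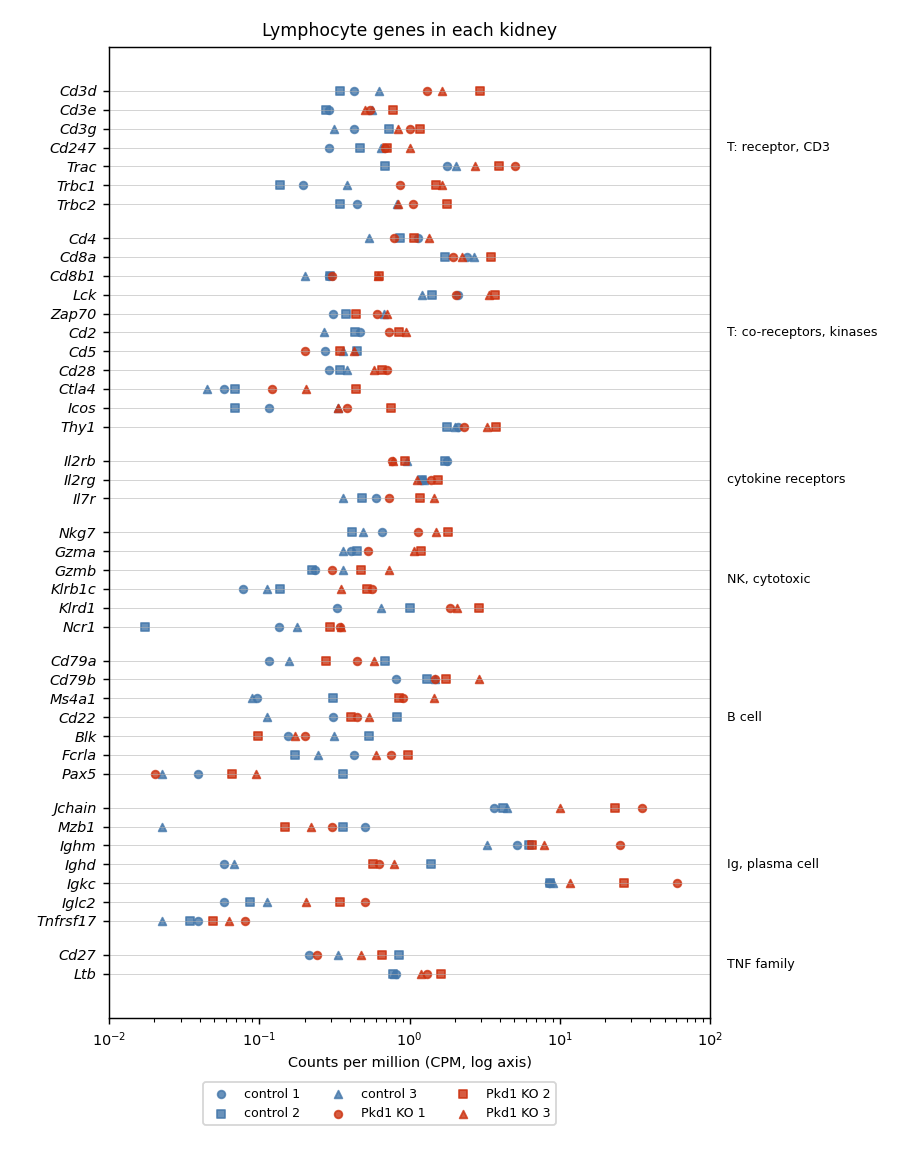
CPM of each of the 43 genes (log axis) in the 3 control kidneys (blue) and the 3 Pkd1 KO kidneys (red), with the shape giving the kidney's number. The groups do not overlap for 25 genes with Pkd1 KO above, among them Cd3d, Trbc1, Ms4a1 and Jchain, while control 2 lies above every other kidney for Cd79a, Cd22, Blk, Pax5 and Ighd.

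The lymphocyte genes were shorter than most, with a median exon length of 2328 bases against 3787 for all tested genes and a median GC content of 50% against 49.4%. In a second fit, offsets removed the dependence of every library on the GC content and exon length of its genes. In it 9 of the 43 were called higher and 0 lower in edgeR's test (0 lower also at an unadjusted p below 0.05; DESeq2, which had no offsets, called 1 lower), against 16.8% and 18.1% of the 17785 genes in that fit. Their median was then 0.62, against −0.01 for all genes. The 9 were Cd3d, Trbc1, Lck, Thy1, Nkg7, Klrb1c, Ms4a1, Jchain and Ltb. With each of the 6 libraries left out in turn, 7 of the 21 calls held every time, those of Cd3d, Trbc1, Nkg7, Klrb1c, Klrd1, Ms4a1 and Jchain, and all 7 but Klrd1 were also called with the offsets.

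**Figure D2:**
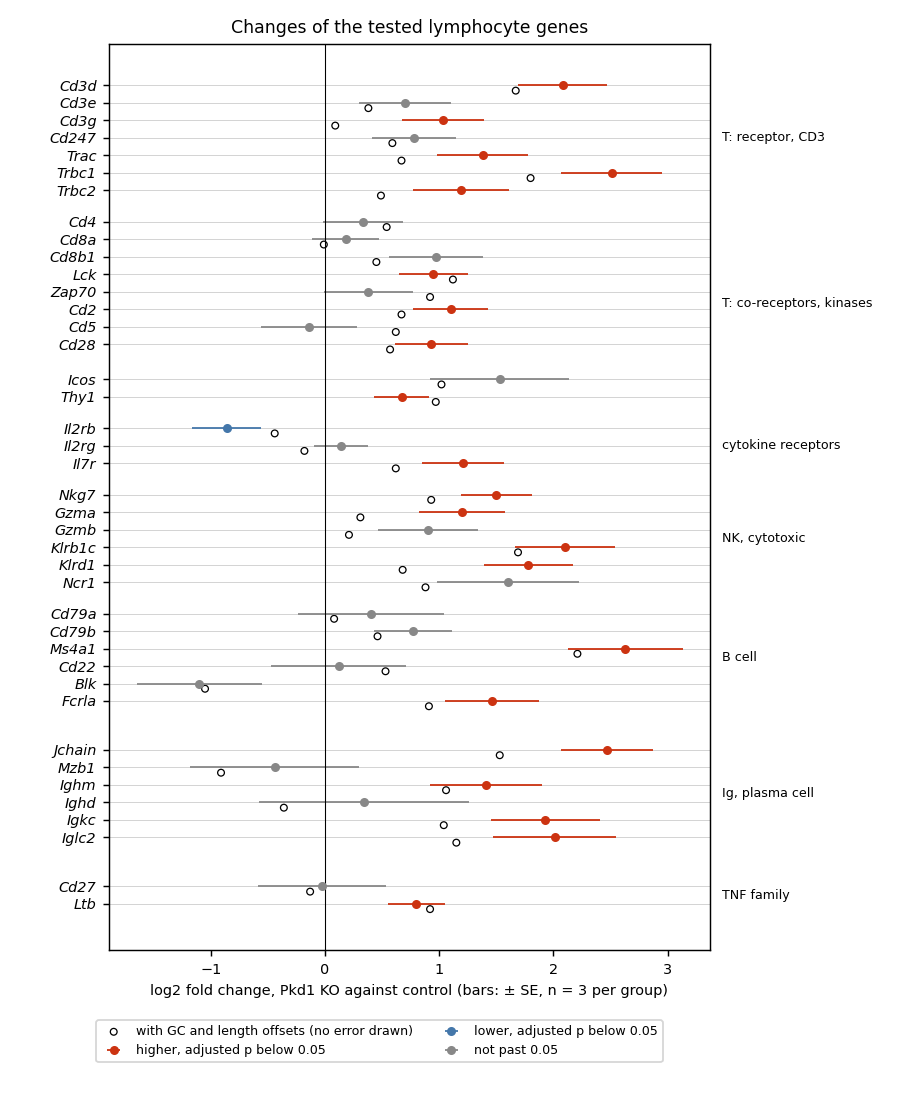
Log2 fold change of the 40 tested genes, Pkd1 KO against control (filled points, bars ± SE, n = 3 per group), and the value of the same gene in the fit with GC content and length offsets (open circles). Of the filled points 21 are called higher (red) and 1 lower (blue), and most open circles of the T cell receptor, NK and immunoglobulin genes lie nearer to 0, as for Cd3g at 0.09 against 1.03.

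The T cell receptor and CD3 genes were called higher in 5 of 7 cases, Cd3d, Cd3g, Trac, Trbc1 and Trbc2, and 6 of the 7 had non-overlapping groups. Over all tested genes 22.7% were called higher, and 31.2% had the Pkd1 KO kidneys above all controls. Cd3d, a CD3 subunit, had 0.427, 0.346 and 0.628 CPM in controls 1, 2 and 3 and 1.31, 2.94 and 1.64 CPM in Pkd1 KO kidneys 1, 2 and 3. Every Pkd1 KO kidney had at least 1.31 CPM while no control passed 0.628 CPM, and the log2 fold change was 2.08 ± 0.39 (adjusted p = 0.00401; 1.67 with offsets, adjusted p = 0.00766). The subunit Cd3g had 0.427, 0.726 and 0.314 CPM in controls and 1.011, 1.18 and 0.8365 CPM in Pkd1 KO kidneys, groups that were apart by the small gap between control 2 and Pkd1 KO 3. Its log2 fold change was 1.03 ± 0.36 (adjusted p = 0.0445), and 0.09 with offsets (adjusted p = 0.876). The subunits Cd3e (0.70 ± 0.40, adjusted p = 0.171) and Cd247, the ζ chain (0.78 ± 0.37, adjusted p = 0.114), were not called. In the annotation 60.3% of the exonic bases of Cd247 are shared with exons of other genes, Pou2f1 on the opposite strand among them, and the counts ignore strand.

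Trac, the constant region of the α chain, had 1.79, 0.692 and 2.04 CPM in controls and 5.07, 3.97 and 2.71 CPM in Pkd1 KO kidneys. The groups did not overlap, at a log2 fold change of 1.38 ± 0.40 (adjusted p = 0.0197; 0.67 with offsets, adjusted p = 0.146). The β chain has 2 constant genes that are near copies of each other, Trbc1 and Trbc2. Their coding sequences of 518 bases each differed at 23 aligned positions (95.6% identity), and 43.7% of the runs of 100 bases in Trbc1 also occur in Trbc2. The stretch in which they differ most, coding bases 459 to 518 in GENCODE M21, is shown because only reads over such positions separate their counts. The capitals mark the 11 bases that differ, read 5′ to 3′.
Trbc1: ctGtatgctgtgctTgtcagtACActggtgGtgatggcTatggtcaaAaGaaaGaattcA
Trbc2: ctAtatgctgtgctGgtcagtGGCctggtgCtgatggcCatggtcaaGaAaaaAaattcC
Trbc1 had 10, 8 and 17 counts in controls and 43, 91 and 104 in Pkd1 KO kidneys, with a log2 fold change of 2.51 ± 0.44 (adjusted p = 0.00339; 1.80 with offsets, adjusted p = 0.00813). Trbc2 had 23, 20 and 37 counts in controls and 52, 108 and 53 in Pkd1 KO kidneys, with 1.19 ± 0.42 (adjusted p = 0.0447; 0.49 with offsets, adjusted p = 0.312). The groups were apart for both, narrowly for Trbc2, where control 3 at 0.83 CPM lay just under Pkd1 KO 3 at 0.8365 CPM. Reads that fit both copies are counted for neither, so the split between the pair is uncertain. Of 22 annotated Trbv segments, controls had 7, 8 and 7 with any count and Pkd1 KO kidneys 17, 15 and 17, with 25, 15 and 14 counts in all against 55, 74 and 78. More counts alone bring more segments into view. The α chain segments did not separate the groups, at 19, 19 and 21 counts against 12, 21 and 32.

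Among co-receptors, kinases and other T cell surface genes, 4 of 11 were called higher, Lck, Cd2, Cd28 and Thy1, 6 were not called, and Ctla4 was not tested. The share over all tested genes was 22.7% called higher and 31.2% with the Pkd1 KO kidneys above all controls. Lck, the kinase that starts T cell receptor signalling, had 2.10, 1.42 and 1.21 CPM in controls and 2.04, 3.72 and 3.39 CPM in Pkd1 KO kidneys. Control 1 lay above Pkd1 KO 1, so the groups overlapped, with a log2 fold change of 0.95 ± 0.30 (adjusted p = 0.0296; 1.12 with offsets, adjusted p = 0.0191). Cd2, an adhesion molecule of T and NK cells, had 0.466, 0.432 and 0.269 CPM in controls and 0.728, 0.853 and 0.947 CPM in Pkd1 KO kidneys (log2 fold change 1.1 ± 0.33, adjusted p = 0.0235; 0.67 with offsets, adjusted p = 0.175). Cd28, the main co-stimulatory receptor, had 0.291, 0.346 and 0.382 CPM in controls and 0.708, 0.656 and 0.584 CPM in Pkd1 KO kidneys (log2 fold change 0.93 ± 0.32, adjusted p = 0.0388; 0.57 with offsets, adjusted p = 0.202). Thy1, a surface protein of T cells that neurons and fibroblasts also make, had 2.10, 1.78 and 1.997 CPM in controls and 2.30, 3.76 and 3.27 CPM in Pkd1 KO kidneys (log2 fold change 0.67 ± 0.24, adjusted p = 0.0439; 0.97 with offsets, adjusted p = 0.0141). For Cd2, Cd28 and Thy1 all 3 Pkd1 KO kidneys stood above all 3 controls.

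The co-receptors themselves were not called. Cd4, of helper T cells, had 1.15, 0.865 and 0.539 CPM in controls and 0.788, 1.07 and 1.36 CPM in Pkd1 KO kidneys (log2 fold change 0.33 ± 0.35, adjusted p = 0.454). Cd8a, of cytotoxic T cells, had 2.41, 1.71 and 2.69 CPM in controls and 1.94, 3.49 and 2.24 CPM in Pkd1 KO kidneys (log2 fold change 0.18 ± 0.29, adjusted p = 0.63), and its partner chain Cd8b1 stood at 0.97 ± 0.41 (adjusted p = 0.0817). Cd4 and Cd8a overlapped between the groups. For Cd8b1 the 3 Pkd1 KO values were the highest, by a narrow margin of 0.303 CPM in Pkd1 KO 1 over 0.294 CPM in control 2. Both Cd4 and Cd8a are also made by myeloid cells such as dendritic cells. Zap70, the second kinase of the receptor, stood at 0.38 ± 0.39 (adjusted p = 0.451), and Cd5, an inhibitory receptor, at −0.14 ± 0.42 (adjusted p = 0.796). The co-stimulatory receptor Icos had 6, 4 and 15 counts in controls and 19, 46 and 21 in Pkd1 KO kidneys (1.53 ± 0.61, adjusted p = 0.0655). Its inhibitory counterpart Ctla4 had 3, 4 and 2 counts against 6, 27 and 13. It was fitted only without the filter, at 2.12 (adjusted p = 0.0287 in edgeR's test), and its groups did not overlap.

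The number of T cell calls depended on single libraries. Of the 18 genes of both T cell lists 9 were called with all libraries, 5 without control 1, 6 without control 2, 5 without control 3, 6 without Pkd1 KO 1, 2 without Pkd1 KO 2 (Cd3d and Trbc1) and 4 without Pkd1 KO 3. Cd28 was called in 0 of these 6 left-out fits, where its adjusted p was 0.0575 to 0.121 and its log2 fold change 0.80 to 1.00. Thy1 kept its call only without Pkd1 KO 1, and without any other library its values were 0.51 to 0.69 (adjusted p = 0.07 to 0.176). Cd3g kept its call only without control 2, with values of 0.75 to 1.15 and adjusted p-values of 0.0697 to 0.15 without any other library. Lck lost its call without control 2 (0.84, adjusted p = 0.0534), control 3 (0.75, adjusted p = 0.0696), Pkd1 KO 2 (0.79, adjusted p = 0.12) and Pkd1 KO 3 (0.87, adjusted p = 0.0935). Trbc2 lost it without control 1, control 2, Pkd1 KO 1 and Pkd1 KO 2, at 0.81 to 1.28 (adjusted p = 0.0808 to 0.198). Cd2 lost it without control 3, Pkd1 KO 2 and Pkd1 KO 3, at 0.86 to 1.1 (adjusted p = 0.0585 to 0.0921). Trac lost it without Pkd1 KO 1 (1.15, adjusted p = 0.0798) and Pkd1 KO 2 (1.37, adjusted p = 0.0624). DESeq2 called 6 of the 18 higher. Of the 18, 0 were called lower in edgeR's test (0 at an unadjusted p below 0.05, 0 in DESeq2).

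Promoter sequences were examined because Cd3d and Cd3g are neighbours that were both called higher. RefSeq (GRCm38.p6) gave an entry for 24 of the 43 genes, and 13 motifs were searched on both strands in the 250 bases before each start. The E-box with the letters CAGGTG, which reads CACCTG on the other strand and is of the kind that E proteins of lymphocytes bind, was present in 12 of the 24 (50%) and in 19.4% of 27025 genes with an entry. It was chosen for printing after the shares of all 13 motifs had been seen. The ETS letters ACAGGAA occurred in 25% against 8.13%, the Runx letters AACCACA in 16.7% against 5.08%, and the octamer ATGCAAAT in 0 of 24 against 1.81%. Cd3d and Cd3g point away from each other on chromosome 9, with starts 1355 bases apart. The windows of this pair and of Gzma are printed 5′ to 3′ in the direction of the gene with the E-boxes in capitals, Cd3d from chr9:44981536-44981785 (plus strand), Cd3g from chr9:44980432-44980681 (minus strand) and Gzma from chr13:113100982-113101231 (minus strand).
Cd3d: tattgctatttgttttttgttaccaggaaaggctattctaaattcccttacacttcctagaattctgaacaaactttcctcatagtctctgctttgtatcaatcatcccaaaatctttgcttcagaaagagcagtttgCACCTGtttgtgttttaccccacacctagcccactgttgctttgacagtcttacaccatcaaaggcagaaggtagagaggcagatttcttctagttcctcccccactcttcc
Cd3g: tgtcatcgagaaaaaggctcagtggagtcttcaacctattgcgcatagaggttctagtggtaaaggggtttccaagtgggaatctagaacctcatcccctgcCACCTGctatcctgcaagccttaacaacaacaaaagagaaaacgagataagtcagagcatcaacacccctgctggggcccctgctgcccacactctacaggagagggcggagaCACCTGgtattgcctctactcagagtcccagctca
Gzma: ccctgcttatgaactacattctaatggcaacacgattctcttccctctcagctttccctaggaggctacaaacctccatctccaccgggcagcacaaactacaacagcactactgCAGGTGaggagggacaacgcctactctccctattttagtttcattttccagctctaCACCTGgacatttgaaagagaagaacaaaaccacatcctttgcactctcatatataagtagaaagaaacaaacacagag
The letters begin 112 bases before the start of Cd3d, 148 and 35 bases before that of Cd3g, and 135 and 79 bases before that of Gzma. Of the 12 genes with the E-box 6 were called higher, 5 were not called and 1 was not tested. Of the 12 genes with an entry and no E-box 4 were called higher, 6 were not called and 2 were not tested. Of the 19 genes without an entry 11 were called higher. The share called higher among all tested genes was 22.7%, and a link between the motif and the calls was not tested. Among searched windows not printed, those of Cd3e (not called) and Jchain (called higher) lacked these letters. Those of Fcrla (called higher) and Cd79a (not called) held them 1 time each. A match describes the letters of the window and does not show that a factor binds there.

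The cytokine receptor chains went different ways. Il7r, the receptor of the T cell survival cytokine interleukin-7, had 0.602, 0.484 and 0.359 CPM in controls and 0.728, 1.18 and 1.45 CPM in Pkd1 KO kidneys. All Pkd1 KO kidneys were above all controls, with a log2 fold change of 1.21 ± 0.36 (adjusted p = 0.0217; 0.62 with offsets, adjusted p = 0.21). It was not called without Pkd1 KO 2 (1.18, adjusted p = 0.074) or Pkd1 KO 3 (0.98, adjusted p = 0.0972). Il2rb, the β chain for interleukin-2 and interleukin-15, was the 1 member of the 43 called lower, going from 1.79, 1.73 and 0.965 CPM in controls to 0.768, 0.935 and 0.773 CPM in Pkd1 KO kidneys. Control 3 stood close to the Pkd1 KO kidneys, and the log2 fold change was −0.86 ± 0.30 (adjusted p = 0.0436; −0.44 with offsets, adjusted p = 0.249). Of the 6 left-out fits only that without control 3 kept this call (−1.14, adjusted p = 0.00546). Without any other library the value was −0.96 to −0.75 (adjusted p = 0.0768 to 0.126). Il2rg, the chain shared by several interleukin receptors, had 1.20 to 1.26 CPM in controls and 1.12 to 1.54 CPM in Pkd1 KO kidneys (log2 fold change 0.14 ± 0.24, adjusted p = 0.64), and 30.5% of its exonic bases are shared with another gene model.

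NK receptors and cytotoxic granule genes were called higher in 4 of 6 cases, Nkg7, Gzma, Klrb1c and Klrd1, and 5 of the 6 had Pkd1 KO kidneys above all controls. For all tested genes these shares were 22.7% and 31.2%. Nkg7, a granule membrane protein needed for killing, had 0.66, 0.415 and 0.494 CPM in controls and 1.13, 1.80 and 1.499 CPM in Pkd1 KO kidneys. The Pkd1 KO kidneys were clear of the controls, at 1.5 ± 0.31 (adjusted p = 0.00555; 0.93 with offsets, adjusted p = 0.0422). Klrb1c, the NK1.1 antigen, had 4, 8 and 5 counts in controls and 28, 32 and 22 in Pkd1 KO kidneys (2.10 ± 0.44, adjusted p = 0.0061; 1.69 with offsets, adjusted p = 0.0208), and 13.9% of its exonic bases are shared with another gene model. Klrd1, which is CD94, the partner of the NKG2 receptors, had 0.33, 1.003 and 0.651 CPM in controls and 1.86, 2.90 and 2.08 CPM in Pkd1 KO kidneys (log2 fold change 1.78 ± 0.39, adjusted p = 0.00678; 0.68 with offsets, adjusted p = 0.186). Control 2 was the highest control for Klrd1 and still lay below each Pkd1 KO kidney. Klrd1 has the lowest GC content of the 43 genes, 35.8%.

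Granzyme A, Gzma, had 0.408, 0.45 and 0.359 CPM in controls and 0.526, 1.197 and 1.07 CPM in Pkd1 KO kidneys. Pkd1 KO 1 was barely above control 2, and the log2 fold change was 1.20 ± 0.38 (adjusted p = 0.0281; 0.31 with offsets, adjusted p = 0.565). The call was lost without control 1, control 3, Pkd1 KO 2 or Pkd1 KO 3, at 0.98 to 1.17 (adjusted p = 0.0569 to 0.122). Granzyme B, Gzmb, stood at 0.90 ± 0.44 (adjusted p = 0.118) with overlapping groups. Ncr1, the NKp46 receptor and among the most specific markers of NK cells, had 7, 1 and 8 counts in controls and 17, 18 and 22 in Pkd1 KO kidneys, so the groups were apart without a call (1.6 ± 0.62, adjusted p = 0.0602).

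Of the 7 B cell genes Ms4a1 and Fcrla were called higher, 4 were not called and Pax5 was not tested, and the groups overlapped for 5. Among all tested genes 22.7% were called higher, and 31.2% had the Pkd1 KO kidneys above all controls. Without control 2 there were 3 calls, and without Pkd1 KO 1 or Pkd1 KO 2 there was 1. Ms4a1, which encodes CD20, had 5, 18 and 4 counts in controls and 45, 52 and 92 in Pkd1 KO kidneys. The lowest Pkd1 KO kidney had 0.853 CPM and the highest control 0.311 CPM, at a log2 fold change of 2.63 ± 0.50 (adjusted p = 0.00432; 2.21 with offsets, adjusted p = 0.0115). Fcrla, an intracellular Fc receptor-like protein of B cells, had 22, 10 and 11 counts in controls and 37, 60 and 38 in Pkd1 KO kidneys (1.46 ± 0.41, adjusted p = 0.0193; 0.91 with offsets, adjusted p = 0.112). Its groups were apart, and it was not called without Pkd1 KO 1 (1.48, adjusted p = 0.0556) or Pkd1 KO 2 (1.25, adjusted p = 0.0901).

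Control 2 stood apart from the other controls in B cell genes, though not in these alone. It was the highest control for 5 of the 7 listed genes and for 14 of the 23 other B cell genes examined. It was also the highest control for 10 of 12 T cell and innate lymphoid transcription factors and for 6 of 8 tubule genes. The receptor subunit Cd79a had 6, 40 and 7 counts in controls and 22, 17 and 37 in Pkd1 KO kidneys. Cd22, an inhibitory B cell lectin, had 16, 48 and 5 counts against 22, 25 and 34. Immunoglobulin D, Ighd, had 3, 81 and 3 counts against 31, 35 and 50. For all 3 genes control 2 was above every Pkd1 KO kidney, and controls 1 and 3 were below them. With all libraries their log2 fold changes were 0.40 ± 0.64, 0.12 ± 0.59 and 0.34 ± 0.92, none of them called (adjusted p = 0.627, 0.879 and 0.776). In a fit without control 2 they were 1.63 (adjusted p = 0.0316), 1.06 (adjusted p = 0.114) and 3.33 (adjusted p = 0.000801). The transcription factor Pax5 had 2, 21 and 1 counts in controls and 1, 4 and 6 in Pkd1 KO kidneys, and the kinase Blk 8, 31 and 14 against 10, 6 and 11 (−1.1 ± 0.55, adjusted p = 0.13). For both genes control 2 was the highest of the 6 kidneys. Cd79b had 0.816, 1.31 and 1.48 CPM in controls and 1.48, 1.74 and 2.92 CPM in Pkd1 KO kidneys, with 0.77 ± 0.34 (adjusted p = 0.0889). In control 2 the fat and adrenal genes summed to 7.16 CPM and the red cell and platelet genes to 80.4 CPM, both inside the range of the other 5 kidneys. Lymph node stroma genes summed to 4.62 CPM there, the lowest of the 6. Single genes of these lists were highest in control 2, namely Cr2 (2.39 CPM against 0.788 to 1.26 CPM elsewhere), Glycam1 and Star. Cr2 was also listed as a B cell gene. The part of other tissue in the B cell values of control 2 was not tested.

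Immunoglobulin and plasma cell genes included the most abundant of the 43 genes. Per kilobase of exon Igkc was the highest in controls, at 16.3 CPM per kilobase, ahead of Ighm at 2.61, Jchain at 1.63 and Trac at 1.61. Jchain, which joins the units of secreted immunoglobulin M and A, had 3.65, 4.22 and 4.46 CPM in controls and 35.4, 23.3 and 9.99 CPM in Pkd1 KO kidneys. Even the lowest Pkd1 KO kidney was above 2 times the highest control, and the log2 fold change was 2.47 ± 0.40 (adjusted p = 0.0028; 1.53 with offsets, adjusted p = 0.0163). The κ light chain Igkc had 8.47, 8.63 and 8.97 CPM in controls and 60.6, 26.9 and 11.7 CPM in Pkd1 KO kidneys (log2 fold change 1.93 ± 0.48, adjusted p = 0.0117; 1.04 with offsets, adjusted p = 0.11). The μ heavy chain Ighm had 5.22, 6.26 and 3.30 CPM in controls and 25.1, 6.58 and 7.81 CPM in Pkd1 KO kidneys (log2 fold change 1.41 ± 0.49, adjusted p = 0.0413; 1.06 with offsets, adjusted p = 0.12). The λ light chain Iglc2 had 3, 5 and 5 counts in controls and 25, 21 and 13 in Pkd1 KO kidneys (2.01 ± 0.54, adjusted p = 0.0152; 1.15 with offsets, adjusted p = 0.126), and its coding sequence is 96.5% identical to that of Iglc3. In all 4 genes the 3 Pkd1 KO kidneys exceeded the 3 controls. Over all tested genes they did so for 31.2%, and 22.7% were called higher.

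Pkd1 KO 1 led this list, with the highest value of its group in 6 of the 7 genes. Without it the log2 fold change of Ighm was 0.54 and no longer called (adjusted p = 0.177), that of Iglc2 1.66 (adjusted p = 0.0703), that of Igkc 1.15 (adjusted p = 0.033) and that of Jchain 2.01 (adjusted p = 0.0131). Without control 1 the calls of Ighm (1.42, adjusted p = 0.111), Igkc (1.88, adjusted p = 0.0511) and Iglc2 (1.77, adjusted p = 0.0596) were lost. Ighm was also not called without control 3 (1.14, adjusted p = 0.0848), nor Iglc2 without Pkd1 KO 2 (2.02, adjusted p = 0.0547). The list had 4 calls with all libraries, 1 without control 1, 5 without control 2, 3 without control 3, 2 without Pkd1 KO 1, 3 without Pkd1 KO 2 and 4 without Pkd1 KO 3. Not all plasma cell genes followed. Mzb1, an endoplasmic reticulum chaperone of plasma and marginal zone B cells, had 26, 21 and 1 counts in controls and 15, 9 and 14 in Pkd1 KO kidneys (−0.44 ± 0.74, adjusted p = 0.639), and 57.2% of its exonic bases are shared with another gene model. Tnfrsf17, the plasma cell survival receptor BCMA, had 1 to 2 counts in controls and 3 to 4 in Pkd1 KO kidneys and was not tested.

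**Figure D3:**
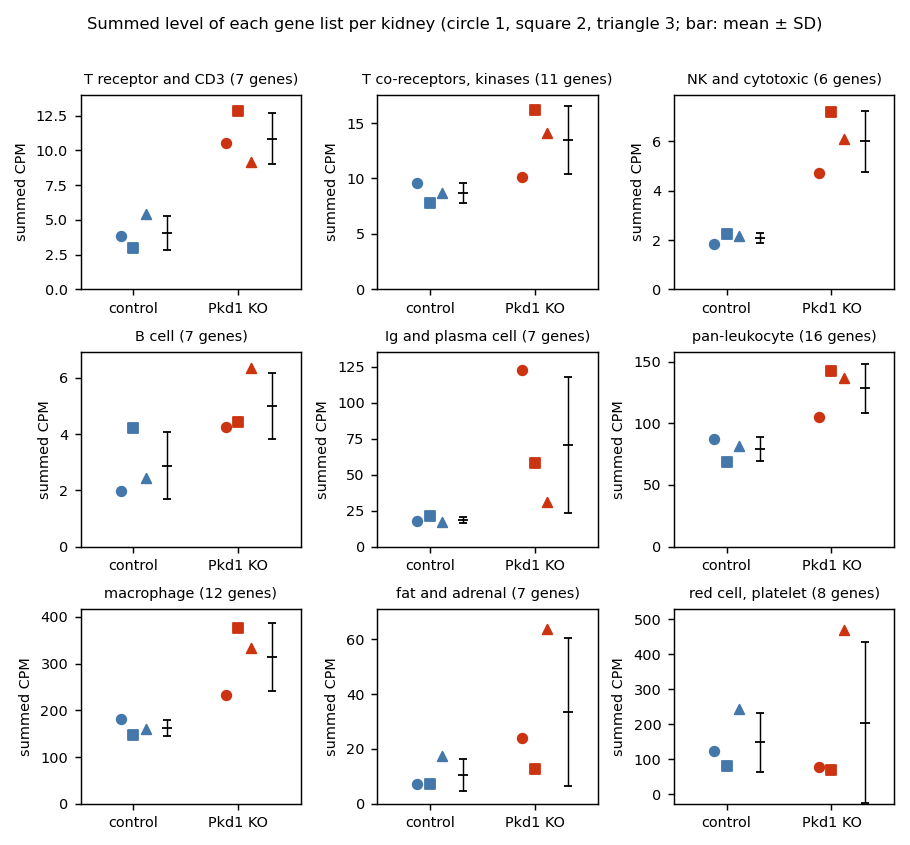
Summed CPM of 5 of the gene lists and of 4 comparison lists in each kidney (circle 1, square 2, triangle 3), with the mean ± SD of each group (n = 3) as a bar beside the points. The receptor and CD3 list runs from 2.99 to 5.41 CPM in controls and from 9.19 to 12.8 CPM in Pkd1 KO kidneys, control 2 is at the level of the Pkd1 KO kidneys in the B cell list, and Pkd1 KO 1 is highest in the immunoglobulin list.

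Of all reads on the heavy-chain constant genes, immunoglobulin A (Igha) took 67.7%, 66.9% and 74.6% in controls 1, 2 and 3 and 34.2%, 71.1% and 45.2% in Pkd1 KO kidneys 1, 2 and 3. The 95% Wilson intervals of the 2 lower Pkd1 KO values, 32.7% to 35.7% and 42.6% to 47.9%, did not reach the lowest control, whose interval was 64.6% to 69.2%. The 4 immunoglobulin G genes together took 9.34%, 5.17% and 7.68% in controls and 33.1%, 6.80% and 14.2% in Pkd1 KO kidneys. These intervals cover counting error only. Pkd1 KO 2 kept the class shares of the controls, and Pkd1 KO 1 and 3 did not. Ighg2c alone had 25, 22 and 14 counts in controls and 736, 49 and 78 in Pkd1 KO kidneys, at 3.82 ± 1.07 (adjusted p = 0.0181) and 1.36 without Pkd1 KO 1 (adjusted p = 0.0346). Without control 1 it was 3.96 and not called (adjusted p = 0.0627). Ighg3 had 110 counts in Pkd1 KO 1 and 0 to 3 in every other kidney. Igha itself was not called (0.30 ± 0.33, adjusted p = 0.465). The Ighg2b and Ighg2c coding sequences are 87.8% identical and share 0 runs of 100 bases.

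**Figure D4:**
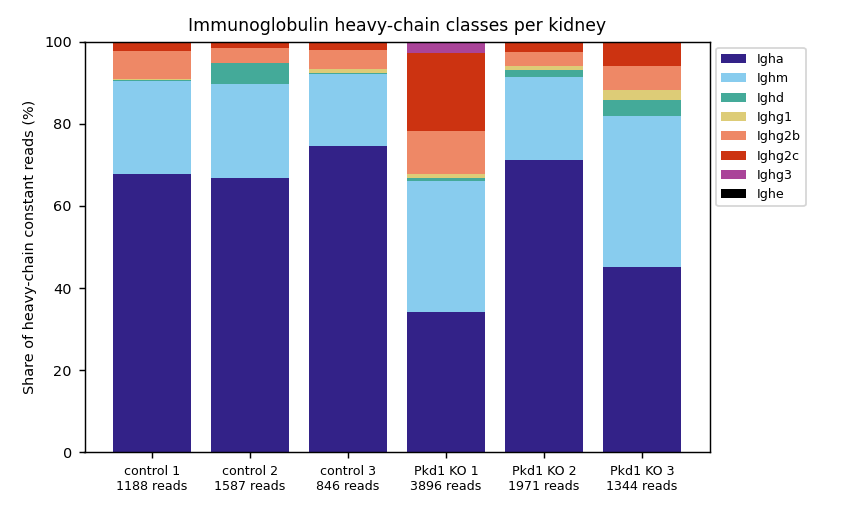
Share of each heavy-chain class in the reads on heavy-chain constant genes, 1 bar per kidney, with the number of reads under each bar (846 to 3896). Igha holds 66.9% to 74.6% of the reads in the controls and 71.1% in Pkd1 KO 2, against 34.2% in Pkd1 KO 1 and 45.2% in Pkd1 KO 3, where Ighg2c and Ighm take larger shares.

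Of 113 Ighv segments 33 to 61 had a count, and the most frequent took 7.69% to 17.1% of the segment counts of its kidney. It was Ighv1-81 in control 2 and in Pkd1 KO 2 and another one in each of the other 4 kidneys. The κ segments had 298, 371 and 180 counts in controls and 1893, 803 and 520 in Pkd1 KO kidneys. The heavy-chain segments had 146, 246 and 143 counts against 553, 209 and 117, and Pkd1 KO 3 was the lowest of the 6 kidneys at 1.85 CPM. The groups were thus apart for the κ segments and not for the heavy-chain ones. No test was run on these sums.

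Cd27 and Ltb belong to the tumour necrosis factor system of T and B cells. Ltb, lymphotoxin β, a cytokine subunit that organises lymphoid tissue, had 0.816, 0.778 and 0.785 CPM in controls and 1.31, 1.62 and 1.20 CPM in Pkd1 KO kidneys. The controls were close together and below each Pkd1 KO kidney, at 0.80 ± 0.25 (adjusted p = 0.0287; 0.92 with offsets, adjusted p = 0.024). In the 6 left-out fits, with 0.66 to 0.89, it was called in 0, with adjusted p-values of 0.0541 to 0.125. Cd27, a co-stimulatory receptor, had 11, 49 and 15 counts in controls and 12, 40 and 30 in Pkd1 KO kidneys (−0.03 ± 0.56, adjusted p = 0.967), with control 2 the highest of the 6.

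The lists were then set beside all leukocytes and the other cells the tissue could hold. The mean summed CPM of Pkd1 KO kidneys over that of controls was 2.66 for the receptor and CD3 genes, 1.55 for the T cell co-receptor list, 2.88 for the NK list, 1.75 for the B cell list and 3.77 for the immunoglobulin list. Pkd1 KO 1 held the highest immunoglobulin sum, 122.6 CPM against 57.8 and 30.8 CPM in Pkd1 KO 2 and 3, and without it this list's ratio was 2.38 (a left-out value chosen after the sums were seen). With all libraries the ratio was 1.62 for 16 pan-leukocyte genes and 1.93 for 12 macrophage genes. The macrophage sums were 147 to 181.3 CPM in controls and 234 to 377 CPM in Pkd1 KO kidneys. Ptprc, the CD45 gene of all leukocytes, rose, its mean going from 12.9 ± 1.98 to 24.98 ± 5.52 CPM (SD, n = 3 each; 0.96 ± 0.20, adjusted p = 0.00595). Per Ptprc read the receptor and CD3 genes had 0.266, 0.28 and 0.403 reads in controls and 0.555, 0.429 and 0.353 in Pkd1 KO kidneys, and control 3 lay above Pkd1 KO 3. The co-receptor list had 0.659, 0.733 and 0.649 reads per Ptprc read in controls and 0.532, 0.54 and 0.542 in Pkd1 KO kidneys, so here the controls were above. The NK list had 0.127, 0.211 and 0.161 against 0.249, 0.241 and 0.234, with the Pkd1 KO kidneys above. The B cell list overlapped, at 0.135, 0.396 and 0.181 in controls and 0.223, 0.148 and 0.245 in Pkd1 KO kidneys, with control 2 the highest of the 6. The immunoglobulin list also overlapped, at 1.24, 1.97 and 1.26 against 6.45, 1.93 and 1.18. These ratios are descriptions without a test.

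The sums of the fat and adrenal, red cell and platelet, and lymph node stroma lists overlapped between the groups. Their calls stand beside 22.7% called higher among all tested genes. Fat and adrenal genes summed to 7.05 to 17.3 CPM in controls and 24.02, 12.6 and 63.9 CPM in Pkd1 KO kidneys, with 632 counts of the fat gene Adipoq in Pkd1 KO 3 against 15 to 211 in the others and 2 of the 7 genes called higher. The adrenal genes Cyp11b1, Cyp11a1 and Hsd3b1 had 0 to 5 counts in every library. Star, the steroidogenic transport gene on the same list, had 125, 268 and 101 counts in controls and 126, 150 and 155 in Pkd1 KO kidneys. Its highest level was in control 2, and it was not called (log2 fold change −0.33 ± 0.29, adjusted p = 0.375 in edgeR's test). Red cell and platelet genes summed to 80.4 to 242 CPM in controls and to 75.8, 67.7 and 469 CPM in Pkd1 KO kidneys, with Pkd1 KO 3 the highest and 1 of the 8 genes called higher. Lymph node stroma genes summed to 4.62 to 6.35 CPM in controls and 5.88 to 7.06 CPM in Pkd1 KO kidneys. Of the 6 genes 4 were tested and 0 were called in edgeR's test (1 at an unadjusted p below 0.05, and 1 called in DESeq2). Madcam1 and Glycam1 did not pass the filter, and edgeR's test without the filter called Madcam1 higher (adjusted p = 0.000165). In 3 of the 6 genes all Pkd1 KO kidneys were above all controls. These were the chemokine genes Ccl21a, with 1.80 to 3.82 CPM in controls and 3.84 to 4.64 CPM in Pkd1 KO kidneys, and Cxcl13, with 0.104 to 0.214 and 0.303 to 0.426 CPM, and Madcam1, with 0 counts in all controls and 7, 16 and 16 in Pkd1 KO kidneys. Glycam1, a gene of lymph node venules, had 4 counts in control 2 and 0 in the other 5 kidneys. The part of attached fat, blood or lymphoid tissue in the lymphocyte values was not tested. Among the Pkd1 KO kidneys, Pkd1 KO 3 was highest for 15 of the 43 genes, Pkd1 KO 2 for 18 and Pkd1 KO 1 for 10.

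Other genes of the same cells were examined in 10 lists of 160 genes, of which 49 were called higher, 7 lower, 64 were not called and 40 did not pass the filter. Among all 18273 tested genes 22.7% were called higher and 24.2% lower. The median over the 160 genes without the filter was 0.88. Of 20 other genes of T cell receptor signalling and T cell surface, 8 were called higher and 2 lower, and 2 were not tested. The adhesion receptor Cd226 (1.98 ± 0.32, adjusted p = 0.0028), the kinase Txk (1.84 ± 0.33, adjusted p = 0.00368) and the adaptor Lat (1.03 ± 0.30, adjusted p = 0.0207) rose, as did Gimap3 (0.91 ± 0.20, adjusted p = 0.00642). Rasgrp1 (−1.17 ± 0.24, adjusted p = 0.00584) and Prkcq (−0.82 ± 0.21, adjusted p = 0.0115) fell, and neither is restricted to lymphocytes. Of 12 transcription factors of T and innate lymphoid cells 0 were called higher in edgeR's test (0 at an unadjusted p below 0.05, 0 in DESeq2) and 2 were called lower, Tox and Gata3. Gata3 (−0.64 ± 0.19, adjusted p = 0.0232) is also a collecting duct gene. Lat was not called without Pkd1 KO 2 (1.02, adjusted p = 0.07) or Pkd1 KO 3 (0.94, adjusted p = 0.0786). Gata3 was not called without Pkd1 KO 1 (−0.55, adjusted p = 0.0914), Pkd1 KO 2 (−0.72, adjusted p = 0.0542) or Pkd1 KO 3 (−0.67, adjusted p = 0.0642). Foxp3, the factor of regulatory T cells, had 4 to 7 counts in controls and 2 to 4 in Pkd1 KO kidneys.

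Other cytotoxic and NK genes were called higher in 9 of 21 cases and lower in 0 (0 also at an unadjusted p below 0.05 and in DESeq2). Of the 21 genes 9 were not tested. The shares over all tested genes were 22.7% called higher and 24.2% lower. Klrk1, which is the activating receptor NKG2D, went from 0.454 ± 0.226 to 2.08 ± 0.521 CPM (2.22 ± 0.40, adjusted p = 0.00378), the T cell chemokine Ccl5 from 0.712 ± 0.224 to 1.76 ± 0.65 CPM (1.31 ± 0.36, adjusted p = 0.0166), and the granule protease Ctsw from 0.948 ± 0.108 to 1.79 ± 0.132 CPM (0.91 ± 0.23, adjusted p = 0.0122). Ccl5 lost its call without Pkd1 KO 2 (1.00, adjusted p = 0.0817) and in the offset fit (0.75), and Ctsw lost it without Pkd1 KO 2 (0.89, adjusted p = 0.0518) or Pkd1 KO 3 (0.88, adjusted p = 0.0509). Perforin, Prf1, the pore-forming protein that granzymes need, was not called (−0.23 ± 0.38, adjusted p = 0.638). The γδ T cell receptor genes were near the floor: Tcrg-C2 had 9, 4 and 5 counts in controls and 15, 11 and 10 in Pkd1 KO kidneys, Tcrg-C1 had 0, 2 and 3 against 8, 9 and 13, and 0 of the 5 genes was tested. Of 16 lymphocyte cytokines 12 did not pass the filter. Ifng had 0, 0 and 2 counts in controls and 9, 14 and 10 in Pkd1 KO kidneys, and Il17a and Il22 had 0 counts in every library. Ifng, Prf1, Foxp3, Il17a and Il22 were named after their values were seen.

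Chemokines, homing receptors and survival cytokines of lymphocytes held further calls. For comparison, 22.7% of all tested genes were called higher and 24.2% lower. Of 25 homing genes 10 were called higher and 0 lower (0 also at an unadjusted p below 0.05 and in DESeq2), led by the receptors Cxcr6 (1.73 ± 0.35, adjusted p = 0.00502) and Ccr2 (1.73 ± 0.21, adjusted p = 0.00234), then Cxcr4 (1.45 ± 0.25, adjusted p = 0.00313). All of these are also carried by cells other than lymphocytes. Of the 25 homing genes 4 were not tested. Madcam1, an endothelial ligand of gut-homing lymphocytes, was at least 11.5-fold higher in Pkd1 KO kidneys against a floor of 3 counts over the control group. It did not pass the filter on low counts, and edgeR's test without the filter called it higher (adjusted p = 0.000165). It was named after its values were seen. Of 7 survival cytokine genes 5 were called higher, among them Il33 (1.39 ± 0.33, adjusted p = 0.00962), Il15 (1.04 ± 0.19, adjusted p = 0.00361), its receptor chain Il15ra (0.93 ± 0.15, adjusted p = 0.0028) and Il7 (0.92 ± 0.22, adjusted p = 0.00975). Il7 was not called in the offset fit (0.33).

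Of 23 other B cell genes 20 were tested, and 3 were called higher and 1 lower, against 22.7% and 24.2% of all tested genes. Those higher were Cd40 (1.47 ± 0.31, adjusted p = 0.0059), Tnfrsf13b (1.16 ± 0.36, adjusted p = 0.0263) and Btk (1.11 ± 0.27, adjusted p = 0.011). The 1 lower was Pou2f2 (−1.37 ± 0.26, adjusted p = 0.0041). Tnfrsf13b was not called without control 1, control 3, Pkd1 KO 2 or Pkd1 KO 3 (adjusted p = 0.054 to 0.105, at 0.92 to 1.12), and Btk not without Pkd1 KO 2 (1.04, adjusted p = 0.052) or Pkd1 KO 3 (1.02, adjusted p = 0.0514). In the offset fit Tnfrsf13b and Pou2f2 (−0.56) were not called. Cd40 and Btk are also genes of macrophages and other myeloid cells. Of 17 plasma cell and immunoglobulin genes 4 were called higher, with Ighg2c first, then the λ chain Iglc1 (2.37 ± 0.74, adjusted p = 0.0275; 1.35 and not called without Pkd1 KO 1, adjusted p = 0.143; 2.30 and not called without control 1, adjusted p = 0.0902) and Fkbp11 (1.07 ± 0.33, adjusted p = 0.0278). Pim2 (−0.96 ± 0.18, adjusted p = 0.00422) and Txndc5 (−0.44 ± 0.13, adjusted p = 0.0227) fell. Of the 17 genes 3 were not tested. Fkbp11 (0.99 to 1.14) and Txndc5 (−0.48 to −0.39) were not called without control 1 or any 1 of the Pkd1 KO libraries (adjusted p = 0.0599 to 0.119). Iglc1 (1.56) and Txndc5 (−0.12) were not called in the offset fit. The plasma cell factor Xbp1, at 191 ± 85.9 CPM in controls, and Txndc5, at 99.3 ± 6.83 CPM, were far above any immunoglobulin gene and are genes of secretory and epithelial cells in general.

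**Figure D5:**
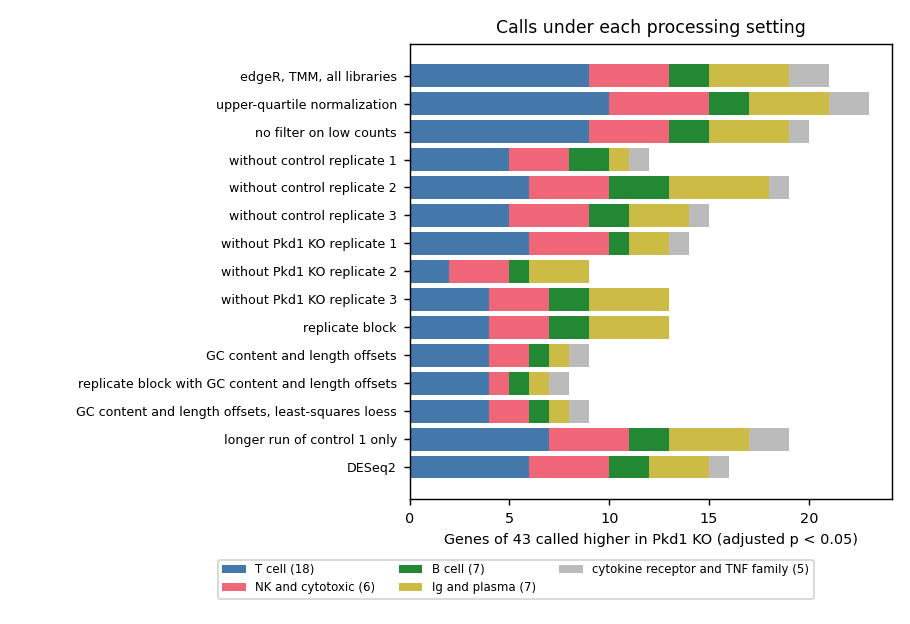
Number of the 43 genes called higher in Pkd1 KO kidneys (adjusted p below 0.05) under each way of processing, stacked by lineage. The count is 21 with all libraries, 9 with GC content and length offsets or without Pkd1 KO 2, and 16 in DESeq2, and the T cell genes fall from 9 to 2 without Pkd1 KO 2.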

How the data were processed

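RNA sequencing of 6 whole kidneys, 3 control and 3 Pkd1 KO, was analysed, with groups and numbers taken from the sample titles. The authors deposited 7 tables of counts, the number of reads on each gene, without normalization. Reads went through STAR 2.6.1e on GRCm39, with cutadapt 4.0 and FastQC 0.11.8 also listed, per the submitters' processing notes. The column that ignores strand was used, the 2 runs of control 1 were summed, and lines that name no gene (22.7% to 26.3% of reads per table) were left out. STAR's table counts reads that map to 1 place, which lowers near copies. Symbols, exon lengths and GC content came from GENCODE M21, joined by identifier (52073 of 56923 matched).

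Groups were compared by the quasi-likelihood test of edgeR 4.0.16 (R 4.3.3) with filterByExpr (minimum count 10), TMM normalization and Benjamini-Hochberg adjustment over all 18273 tested genes at 0.05. SE is the absolute log2 fold change over the root of F, and CPM uses TMM library sizes. The offset fit used a robust loess (span 0.3) per library, chosen over least squares after the total calls of both were seen, so both are given. Alternatives were DESeq2 1.42.0, upper-quartile normalization, no filter, single libraries left out, a replicate block, the offsets and the longer run of control 1. Samples with the same number did not deviate together (correlations 0.04, −0.08 and −0.03).

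Members and lists were chosen with earlier results of these data known. All 43 members are accounted for. In other lists up to 4 called genes with the largest change per direction and a mean log2 CPM of at least 0 were named, or, in a list without calls, its 2 most abundant ones. Fewer are printed for some lists, a choice made after the values were seen. A result that this rule took is not reported here. Of 285 list entries 3 matched no identifier. The test was checked on simulated counts.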

Additional observations from a re-analysis of the deposited data

How the results depend on the processing

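Counts below are of calls in edgeR's test unless DESeq2 is named. Members called higher numbered 21; they were 9 with GC content and length offsets under either loess, 8 with the replicate block and offsets, 13 with the replicate block and 9 to 19 with a library left out (12 without control 1, 9 without Pkd1 KO 2, 13 without Pkd1 KO 3). Il2rb, the 1 member called lower, was called in 0 fits with upper-quartile normalization, the replicate block, or the offsets with or without the block or by least squares, and 0 to 1 members were called lower with a library left out (0 without control 1, control 2 or any Pkd1 KO library). At an unadjusted p below 0.05 it was lower in the upper-quartile and block fits (1) and not in the offset fits (0), and DESeq2 called 1. T cell genes (9) numbered 4 with the offsets under either loess, 4 with the block, 4 with both, and 2 to 6 with a library left out. NK genes (4) numbered 2 with the offsets, 1 with the block and offsets, 2 by least squares. B cell genes (2) numbered 1 in all 3 offset fits and 1 to 3 with a library left out. Immunoglobulin and plasma cell genes (4) numbered 1 in all 3 offset fits and 1 to 5 with a library left out. The other lymphocyte genes called higher (49) numbered 30 to 52 with a library left out (30 without Pkd1 KO 2), and those called lower (7) 4 with upper-quartile normalization, 3 with the block and offsets, and 4 to 13 (13 without control 3, 4 without each Pkd1 KO library). Samples with the same replicate number did not deviate together. Why calls were lost under the block was not tested.

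Signs turned only for genes that were not called. With the offsets Cd8a was −0.01, Cd5 0.62, Il2rg −0.18 and Ighd −0.36; by least squares −0.06, 0.59, −0.22 and −0.39; with the block and offsets Cd8a −0.05, Cd5 0.58 and Il2rg −0.19. Cd27 was 0.07 with the block and 0.15 with upper-quartile normalization, where Cd5 was 0.03. With a library left out Cd8a ranged from −0.11 to 0.34, Cd5 from −0.39 to 0.09, Cd79a from −0.03 to 1.63, Cd22 from −0.35 to 1.06, Mzb1 from −1.01 to 0.09, Ighd from −0.22 to 3.33 and Cd27 from −0.41 to 0.72. The cause of these changes was not tested. Of the 43 members 33 had a mean below 1 CPM in controls, and 15 had under 10 counts in at least 1 library. In the 6 left-out sets, added after the sums were seen, the immunoglobulin ratio of 3.77 ranged from 2.38 to 4.84.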

Other observations

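Ms4a2, the β chain of the high-affinity receptor for immunoglobulin E and a member of the mast cell and basophil list, had 35, 24 and 18 counts in controls 1, 2 and 3 and 58, 393 and 232 counts in Pkd1 KO kidneys 1, 2 and 3 (log2 fold change 2.91 ± 0.57, adjusted p = 0.00468 in edgeR's test). The other 6 genes of that list did not pass the filter on low counts and did not move with it. Cpa3 had 0 to 6 counts, Tpsb2 0 to 6, Cma1 and Fcer1a 0 to 1, and Mcpt4 and Mcpt8 0 in every library. The mast cell proteases were thus at or near 0 in the kidneys where Ms4a2 was highest. Ms4a2 was chosen after its values were seen.

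The remaining comparison lists gave the following calls in edgeR's test, beside 22.7% called higher and 24.2% lower among all tested genes. Of 10 dendritic cell genes 4 were called higher and 0 lower (0 lower at an unadjusted p below 0.05 and in DESeq2). Of 9 neutrophil genes 2 were called higher and 6 were not tested. The 2 were S100a8, with overlapping groups and an adjusted p of 0.04999, and S100a9, and neither was called in the offset fit. Of 12 macrophage genes 8 were called higher and 2 lower, and of 16 pan-leukocyte genes 8 were called higher. Of 10 stromal, pericyte and nerve genes 3 were called higher and 3 lower, with sums of 300.1 to 342 CPM in controls and 297 to 334 CPM in Pkd1 KO kidneys. Of the 16 lymphocyte cytokines 2 were called higher.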
